A study of Mus musculus with 32 samples.

Results

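Neurons let calcium in through voltage-gated channels and through store-operated channels, release it from the endoplasmic reticulum, and pump it back into the store or out of the cell. The genes that encode this machinery were taken here as every protein-coding gene whose GENCODE M21 symbol begins with Cacn (voltage-gated channel subunits and their relatives), Atp2a, Atp2b or Atp2c (calcium pumps) or Orai (store-operated channels), together with the ryanodine receptor genes Ryr1, Ryr2 and Ryr3, the inositol trisphosphate receptor genes Itpr1, Itpr2 and Itpr3, and Stim1 and Stim2 (sensors of the calcium store). The rule found 46 genes among the 54532 in the count table, and no gene of the annotation that met it was missing from the table. These were 10 Cacna1, 4 Cacnb, 4 Cacna2d, 8 Cacng, 3 Ryr, 3 Itpr, 3 Atp2a, 4 Atp2b, 2 Atp2c, 2 Stim and 3 Orai genes. The rule used symbols and no measured value, although the group was chosen with earlier results of these data known.

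RNA was measured in the striatum of 32 mice aged 6 months, with 8 mice in each of 4 genotypes, bred as littermates on a C57BL/6J background. The wild-type and Msh3-/- mice carried no expanded huntingtin allele, whereas the zQ175 and zQ175:Msh3-/- mice carried the zQ175 knock-in allele, an expanded CAG repeat placed in the mouse's own huntingtin gene and therefore present in every cell type. In the Msh3-/- and zQ175:Msh3-/- mice, both copies of Msh3, a mismatch repair gene on which expansion of the CAG repeat in somatic cells depends, carried the CRISPR deletion of 1 knockout line. Males and females were 4 and 4 in each group except zQ175:Msh3-/-, which had 5 males and 3 females. The comparisons asked what the zQ175 allele did to striatal transcripts, and whether losing MSH3 altered that.

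The voltage-gated channels consist of a pore-forming α1 subunit (Cacna1 genes) with a cytoplasmic β subunit (Cacnb) and an extracellular α2δ subunit (Cacna2d). Of the γ genes (Cacng), Cacng1 and Cacng6 encode muscle-type channel subunits, and Cacng2, Cacng3, Cacng4, Cacng5, Cacng7 and Cacng8 encode auxiliary subunits of AMPA glutamate receptors. In striatal spiny projection neurons, the main cell type of this tissue, ryanodine and inositol trisphosphate receptors release stored calcium, SERCA pumps (Atp2a) refill the store, PMCA pumps (Atp2b) export calcium across the plasma membrane, SPCA pumps (Atp2c) load the Golgi apparatus, and STIM proteins open ORAI channels when the store is depleted.

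The upstream sequences of 3 of these genes are shown. Ryr1 and Ryr2 were taken for the contrast between ryanodine receptor genes in the results. Cacna2d3 was taken as a further lower gene, whose start, like that of Ryr2, is the same in both annotations. The sequences are from RefSeq on GRCm38.p6, the 250 bases before the annotated start, read 5′ to 3′ on the strand of the gene. All 3 genes lie on the minus strand, Ryr1 at chr7:29125152-29125401, Ryr2 at chr13:12106946-12107195 and Cacna2d3 at chr14:29721865-29722114. The last 28 bases of the Ryr1 stretch fall inside the longer GENCODE gene model, and the other stretches lie wholly upstream. Capitals mark GGGCGG or its reverse complement CCGCCC, the core of the GC box.
Ryr1: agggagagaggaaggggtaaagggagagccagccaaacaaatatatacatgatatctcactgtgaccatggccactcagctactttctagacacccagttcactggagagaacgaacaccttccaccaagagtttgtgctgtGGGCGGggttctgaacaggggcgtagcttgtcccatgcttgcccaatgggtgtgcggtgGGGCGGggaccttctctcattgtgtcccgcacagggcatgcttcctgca
Ryr2: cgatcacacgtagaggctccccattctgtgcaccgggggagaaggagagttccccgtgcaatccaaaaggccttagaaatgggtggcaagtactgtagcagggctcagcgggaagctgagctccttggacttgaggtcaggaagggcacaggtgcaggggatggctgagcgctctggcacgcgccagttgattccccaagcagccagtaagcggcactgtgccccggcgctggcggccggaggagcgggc
Cacna2d3: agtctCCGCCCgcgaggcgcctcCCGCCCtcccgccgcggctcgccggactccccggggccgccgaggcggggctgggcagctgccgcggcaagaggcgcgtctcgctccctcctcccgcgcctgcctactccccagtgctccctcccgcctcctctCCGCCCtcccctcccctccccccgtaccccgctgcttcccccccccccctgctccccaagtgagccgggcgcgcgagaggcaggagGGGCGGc
GGGCGG, on either strand, occurred 2 times upstream of Ryr1, 0 times upstream of Ryr2 and 4 times upstream of Cacna2d3. Among genes not past the thresholds in the results below, it occurred 8 times upstream of Stim1, 5 of Atp2a3 and 4 of Itpr2. It occurred 0 times upstream of Cacna1c and Cacna1i, also not past them. Upstream of Cacna2d1, which was higher in 1 comparison, it occurred 6 times. A relation of these matches to the results was not tested. RefSeq windows were found for 35 of the 46 genes, 48 windows in all since some genes have several starts. GGGCGG was present in 28 of these 48 (58.3%) and in 32.7% of the 32851 mouse windows of the same length. The cAMP response element TGACGTCA was in 0 of the 48 windows and 1.55% of all windows, and TATAAA, on either strand, was in 1 of 48 and 12.4%. These are matches of letters and not evidence of binding.

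Total counts per mouse ran from 12359347 to 25030335. Of the 46 genes, 42 had enough counts to be tested. Atp2a1, Atp2c2, Cacna1f and Cacng6 did not pass the filter, and none of them had more than 13 counts in any mouse. Msh3 itself stood at 24.5 ± 1.61 CPM (the reads of a gene as a share of the library's reads, scaled by TMM factors to one common size; mean ± SD, n = 8) in wild-type and 24.4 ± 1.53 in zQ175 mice, against 11.8 ± 1.2 in Msh3-/- and 12.9 ± 1.15 in zQ175:Msh3-/- mice, and the ranges of the mice with and without intact Msh3 did not overlap. The editing removed part of the gene, and reads from the rest of it still enter a count over the whole gene.

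Levels are compared between genes in TPM, a share of each library's transcripts that corrects for transcript length. In wild-type striatum the plasma membrane pump Atp2b1 was at 1005 TPM, Atp2a2 (SERCA2) at 472, the inositol trisphosphate receptor Itpr1 at 415 and Atp2b2 at 304 (means, n = 8). Each of these 4 genes lay above every gene ranked below it in the list of mean TPM, with the exception that the mice of Atp2a2 and Itpr1 overlapped. From Cacna2d3 (156 TPM) down to Cacna1d (17.9), at positions 5 to 32 in this order, the values of every gene overlapped those of the next. Pore-forming subunits sat in the middle and lower part, led by Cacna1h (68.9, a T-type channel), Cacna1e (62.6, R-type) and Cacna1a (55.6, P/Q-type). Muscle-type and retinal subunits were scarce, with Cacng1 at 1.84 TPM, Cacna1s at 0.562, Cacng6 at 0.0725 and Cacna1f at 0.0410. Itpr1 made up 98.2% of the summed TPM of the inositol trisphosphate receptors and Atp2a2 99.0% of that of the SERCA pumps.

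**Figure D1:**
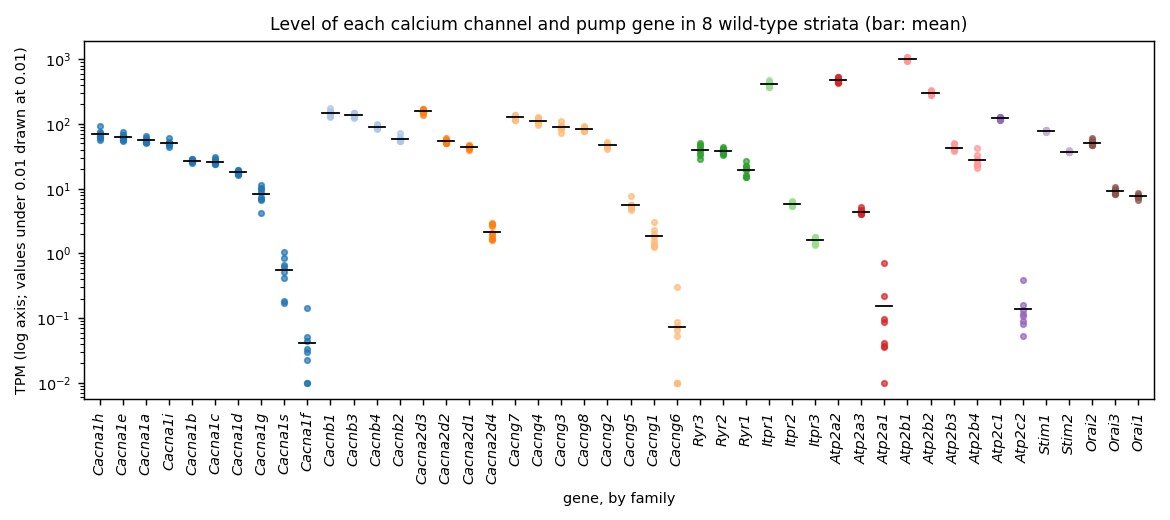
TPM of each of the 46 genes in the 8 wild-type mice on a log axis, with genes grouped and coloured by family along the horizontal axis and a black bar at the mean; values under 0.01 are drawn at 0.01. Atp2b1, Atp2a2, Itpr1 and Atp2b2 stand above all other genes, and Cacna1f, Cacng6, Atp2c2 and Atp2a1 lie lowest.

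In zQ175 against wild-type striatum, 13 of the 42 tested genes were lower and 0 were higher past both thresholds, an adjusted p under 0.05 and a difference of 1.2-fold or more (edgeR quasi-likelihood test, Benjamini-Hochberg adjustment over 16610 genes). The 13 are 31.0% of the tested genes, where 6.89% of all genes were lower by the same rule and 4.7% were higher. They included both kinds of release channel, the SERCA pump and the 2 most abundant plasma membrane pumps, namely Ryr1, Ryr3, Itpr1, Atp2a2, Atp2b1 and Atp2b2, with Cacna1e, Cacnb1, Cacnb2, Cacna2d3, Cacng1, Cacng3 and Cacng4 from the channel subunits. The Golgi pump Atp2c1 and all 5 STIM and ORAI genes were not past the thresholds. By adjusted p alone 22 of the 42 passed in either direction, against 26.5% of all genes. The median log2 fold change was -0.07 over the 42 genes and 0.01 over all genes, and 29 of the 42 were below 0 (69.0%, against 47.0% of all genes). In 9 of the 42 genes all 8 zQ175 mice lay below all 8 wild-type mice, as did 4.61% of all genes.

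The same comparison on the Msh3-/- background, zQ175:Msh3-/- against Msh3-/-, shares no mouse with the first. It gave 12 genes lower, where the share of all genes was 5.96%, and 2 higher, where the share was 4.68%. By adjusted p alone 20 passed, against 24.1% of all genes. All 8 zQ175:Msh3-/- mice lay below all 8 Msh3-/- mice in 8 of the 42 genes and in 3.64% of all genes. The 12 lower genes were all among the 13 of the first comparison, which is 92.3% of those 13 and 85.7% of the 14 called here. The overlap of calls over all genes is not given here, so these percentages are not shown to be particular to the calcium genes. Cacna1e was past both thresholds only without the Msh3 deletion, and Atp2b4 and Cacna2d1, which were higher, only with it; whether those genes differ between backgrounds is given with the interaction test. Across the 42 genes the log2 fold changes of the 2 comparisons had Pearson's r = 0.975, or 0.949 without Ryr1. Over all genes r was 0.743, but the 42 were not matched to all genes by level, so these values are not a like comparison. Genes are not independent replicates, and no p is given. The median was -0.06, against 0.01 over all genes.

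**Figure D2:**
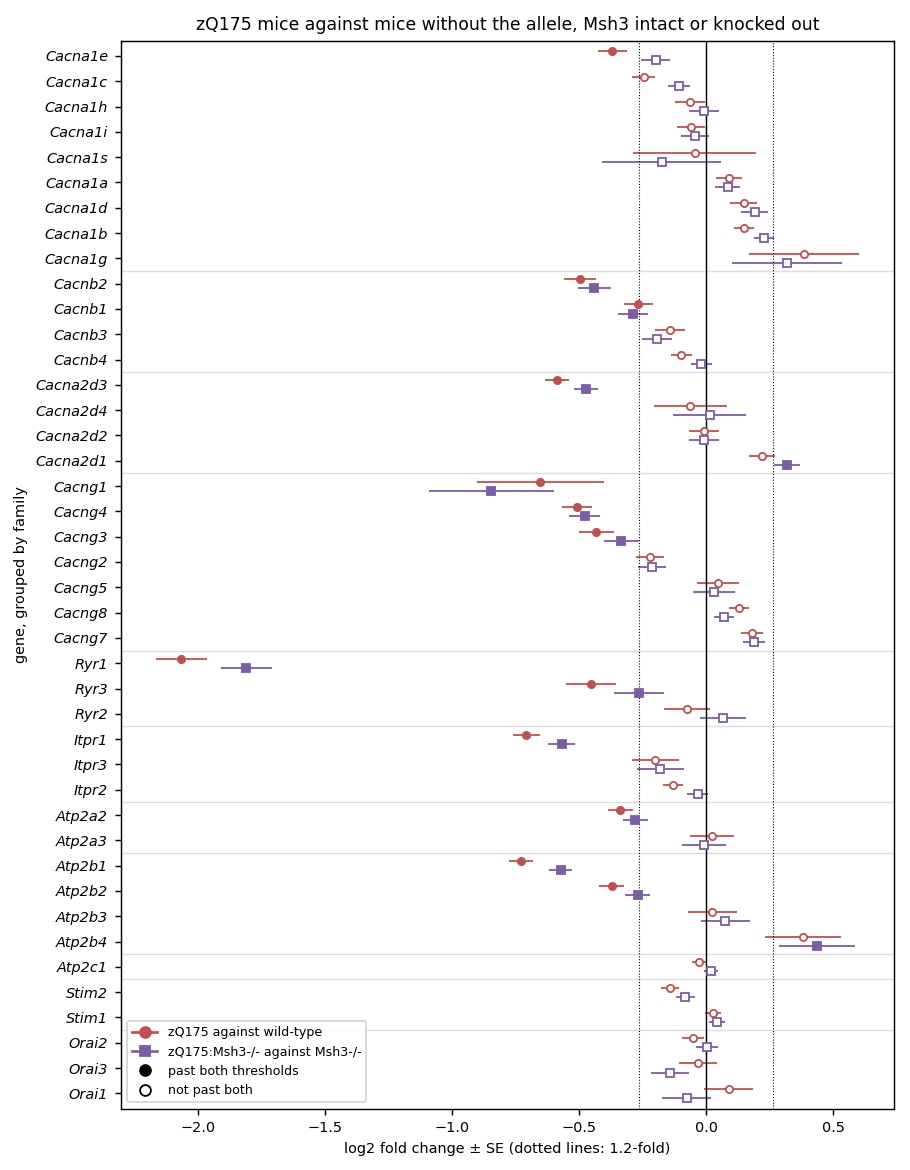
Log2 fold change ± SE on the horizontal axis for the 42 tested genes, grouped by family on the vertical axis; circles compare 8 zQ175 with 8 wild-type mice, squares compare 8 zQ175:Msh3-/- with 8 Msh3-/- mice, and filled symbols passed both thresholds. Ryr1 lies near -2 in both comparisons, the other filled symbols on the left lie between -0.27 and -0.84, and circle and square of a gene lie close together.

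The largest difference belonged to Ryr1, the ryanodine receptor best known from skeletal muscle, at chr7:29003344-29125179 (GRCm38, minus strand). Its level ran from 89.1 CPM through a median of 122 to 158 in wild-type mice and from 22.1 through 28.9 to 32.7 in zQ175 mice. On the Msh3-/- background it ran from 87.8 (median 105) to 127 without the zQ175 allele and from 28.7 (median 30.0) to 34.2 with it. Every zQ175 and zQ175:Msh3-/- mouse was therefore far below every mouse without the allele. The log2 fold change was -2.06 ± 0.10 (SE, adjusted p = 4.83e-16), or 0.239 times the wild-type level, and -1.81 ± 0.10 (adjusted p = 1.28e-14) on the Msh3-/- background. An exact two-sided permutation test of the single gene gave p = 0.000155 in each, the smallest that 8 against 8 mice allow. Wild-type males spanned 89.1 to 130 CPM and wild-type females 119 to 158, and both sexes of zQ175 mice stayed at or under 32.7.

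Ryr3, the ryanodine receptor found widely in brain, was lower by less. It ran from 157 (median 203) to 251 CPM in wild-type and from 121 (median 153) to 177 in zQ175 mice. In Msh3-/- mice it ran from 159 (median 181) to 223, and in zQ175:Msh3-/- mice from 125 (median 160) to 182. The groups overlapped in both comparisons. Its log2 fold change was -0.45 ± 0.10 (adjusted p = 0.000669) and, on the Msh3-/- background, -0.27 ± 0.10 (adjusted p = 0.0457). The second call was lost on leaving out any 1 of 11 of the 16 mice, all but Msh3-/- females 1 and 2 and zQ175:Msh3-/- males 2 and 4 and female 3 (adjusted p from 0.0501 to 0.106). It was also lost with sex in the model, without the filter on low counts (adjusted p = 0.0786) and in all 3 settings on the TPM scale (0.0615 to 0.0998 in limma). Ryr2, the cardiac type, did not pass either test, with log2 fold changes of -0.08 ± 0.09 and 0.07 ± 0.09.

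The proportions of the ryanodine receptor genes differed between the genotypes. Ryr1 made up 19.9% ± 1.75 (SD, n = 8) of the summed Ryr TPM in wild-type and 19.2% ± 1.77 in Msh3-/- mice, and 7.31% ± 0.652 in zQ175 and 7.22% ± 0.725 in zQ175:Msh3-/- mice. Ryr2 took 39.3% ± 4.83 in wild-type and 39.3% ± 3.12 in Msh3-/- mice, and 51.0% ± 5.64 in zQ175 and 50.6% ± 6.28 in zQ175:Msh3-/- mice. The Ryr2 shares overlapped between wild-type (32.2% to 45.8%) and zQ175 mice (39.5% to 57.5%). They did not between Msh3-/- (32.9% to 42.4%) and zQ175:Msh3-/- mice (43.0% to 59.2%). The TPM of Ryr2 itself was 38.3 ± 3.67 in wild-type and 37.3 ± 7.98 in zQ175 mice, so its larger share was not a higher level. Summed Ryr TPM was 98.3 ± 12.5 in wild-type and 73.0 ± 10.6 in zQ175 mice.

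**Figure D3:**
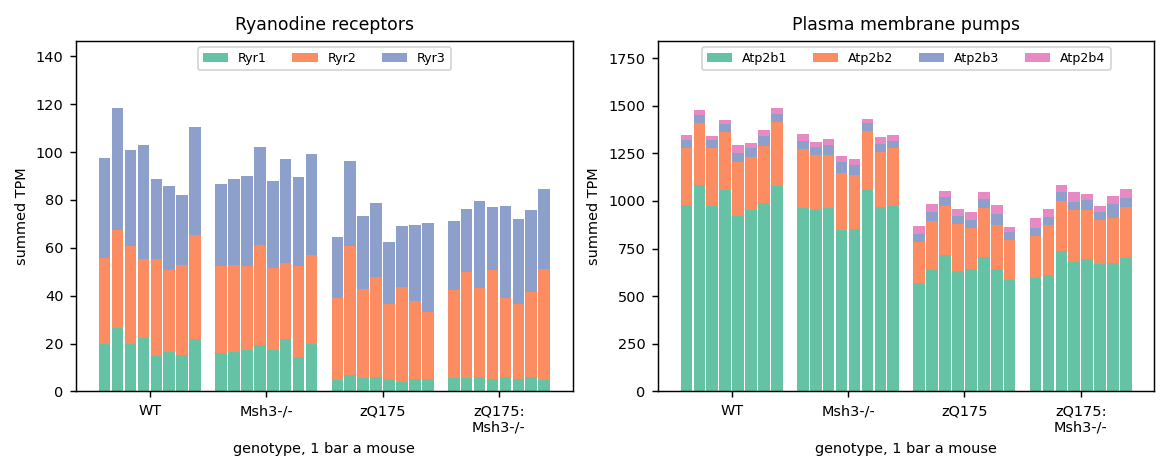
Summed TPM of the ryanodine receptor genes (left) and the plasma membrane pump genes (right), 1 bar a mouse in 4 blocks of 8 by genotype, with colours for the genes. The Ryr1 segment averages 19.9% of the bar in wild-type and 7.31% in zQ175 mice, and the pump bars are shorter in both zQ175 genotypes, mainly through Atp2b1.

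Itpr1, the inositol trisphosphate receptor that dominates in neurons, ran from 1351 (median 1469) to 1689 CPM in wild-type and from 816 (median 900) to 1025 in zQ175 mice. In Msh3-/- mice it ran from 1269 (median 1357) to 1604, and in zQ175:Msh3-/- mice from 848 (median 964) to 997. Neither pair of groups overlapped. The log2 fold changes were -0.71 ± 0.05 (adjusted p = 6.22e-13) and -0.57 ± 0.05 (adjusted p = 1.79e-10). Itpr2 and Itpr3, both scarce in this tissue at 5.87 and 1.61 TPM in wild-type mice, were not past both thresholds, with log2 fold changes of -0.13 ± 0.04 and -0.20 ± 0.09 in zQ175 against wild-type mice. Summed TPM of the 3 receptors was 423 ± 37.2 in wild-type and 272 ± 20.4 in zQ175 mice.

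Among the pumps that export calcium, Atp2b1 was the most abundant and the most reduced. It ran from 1487 (median 1601) to 1723 CPM in wild-type and from 854 (median 975) to 1101 in zQ175 mice. In Msh3-/- mice it ran from 1301 (median 1536) to 1657, and in zQ175:Msh3-/- mice from 966 (median 1009) to 1102. All zQ175 mice were below all wild-type mice, and likewise on the Msh3-/- background. The log2 fold changes were -0.73 ± 0.05 (adjusted p = 8.20e-15) and -0.57 ± 0.05 (adjusted p = 5.03e-12). Atp2b2, a fast PMCA enriched in neurons, ran from 898 (median 970) to 1048 CPM in wild-type and from 672 (median 757) to 836 in zQ175 mice. It ran from 859 (median 937) to 996 in Msh3-/- and from 701 (median 787) to 851 in zQ175:Msh3-/- mice, again without overlap. Its log2 fold changes were -0.37 ± 0.05 (adjusted p = 1.35e-07) and -0.27 ± 0.05 (adjusted p = 4.47e-05), the second close to the 1.2-fold threshold, under which it came without Msh3-/- female 1 or male 2 or zQ175:Msh3-/- female 1, male 3 or male 4 (-0.25 to -0.26), and in all 3 settings on the TPM scale (-0.24).

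Atp2b4 had the opposite sign. It ran from 63.5 (median 85.0) to 135 CPM in wild-type and from 77.6 (median 122) to 134 in zQ175 mice, and from 65.5 (median 95.3) to 118 in Msh3-/- and from 85.3 (median 129) to 165 in zQ175:Msh3-/- mice. The groups overlapped broadly. The log2 fold change was 0.38 ± 0.15 (adjusted p = 0.0586) in the first comparison and 0.43 ± 0.15 (adjusted p = 0.0325) in the second, and it was past both thresholds only in the second. Leaving out 1 mouse moved these calls in either direction: the first was gained without wild-type male 1 or 3 or zQ175 female 3 or male 4 (adjusted p from 0.00867 to 0.0495). The second was lost without Msh3-/- male 2 or female 2 or zQ175:Msh3-/- male 1, male 5, female 1 or female 2 (adjusted p from 0.0524 to 0.0759), and without the filter on low counts (adjusted p = 0.0685). On the TPM scale both were past the thresholds (adjusted p from 0.0159 to 0.0333 in limma). Atp2b3 passed in neither comparison (0.02 ± 0.10 and 0.07 ± 0.10). Summed Atp2b TPM was 1380 ± 74.1 (SD, n = 8) in wild-type against 961 ± 70.8 in zQ175 mice, and 1318 ± 67.1 in Msh3-/- against 1013 ± 59.5 in zQ175:Msh3-/- mice. The share held by Atp2b1 was 72.8% against 66.5% in the first pair of groups and 71.8% against 66.2% in the second.

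Atp2a2, the SERCA pump that refills the store, ran from 1011 (median 1074) to 1222 CPM in wild-type and from 767 (median 877) to 998 in zQ175 mice. It ran from 993 (median 1060) to 1180 in Msh3-/- and from 814 (median 878) to 957 in zQ175:Msh3-/- mice. The groups did not overlap in either comparison, although the gap was narrow. The log2 fold changes were -0.34 ± 0.05 (adjusted p = 1.16e-06) and -0.28 ± 0.05 (adjusted p = 3.42e-05), and the second came under 1.2-fold without Msh3-/- female 1 (-0.26) and in all 3 settings on the TPM scale (-0.20). Atp2a3 did not pass (0.02 ± 0.09 and -0.01 ± 0.09). Atp2c1, the Golgi pump, lay at 154 to 166 CPM (median 160) in wild-type, 149 to 165 (158) in zQ175, 147 to 161 (154) in Msh3-/- and 146 to 166 (157) in zQ175:Msh3-/- mice. Its log2 fold changes of -0.03 (95% interval -0.08 to 0.03) and 0.02 (-0.04 to 0.07) were not past the test. Of its exonic bases 18.9% are shared with Aste1 on the opposite strand. On the TPM scale, where the median of all genes was 0.07 in the first comparison, Atp2c1 was at 0.06.

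**Figure D4:**
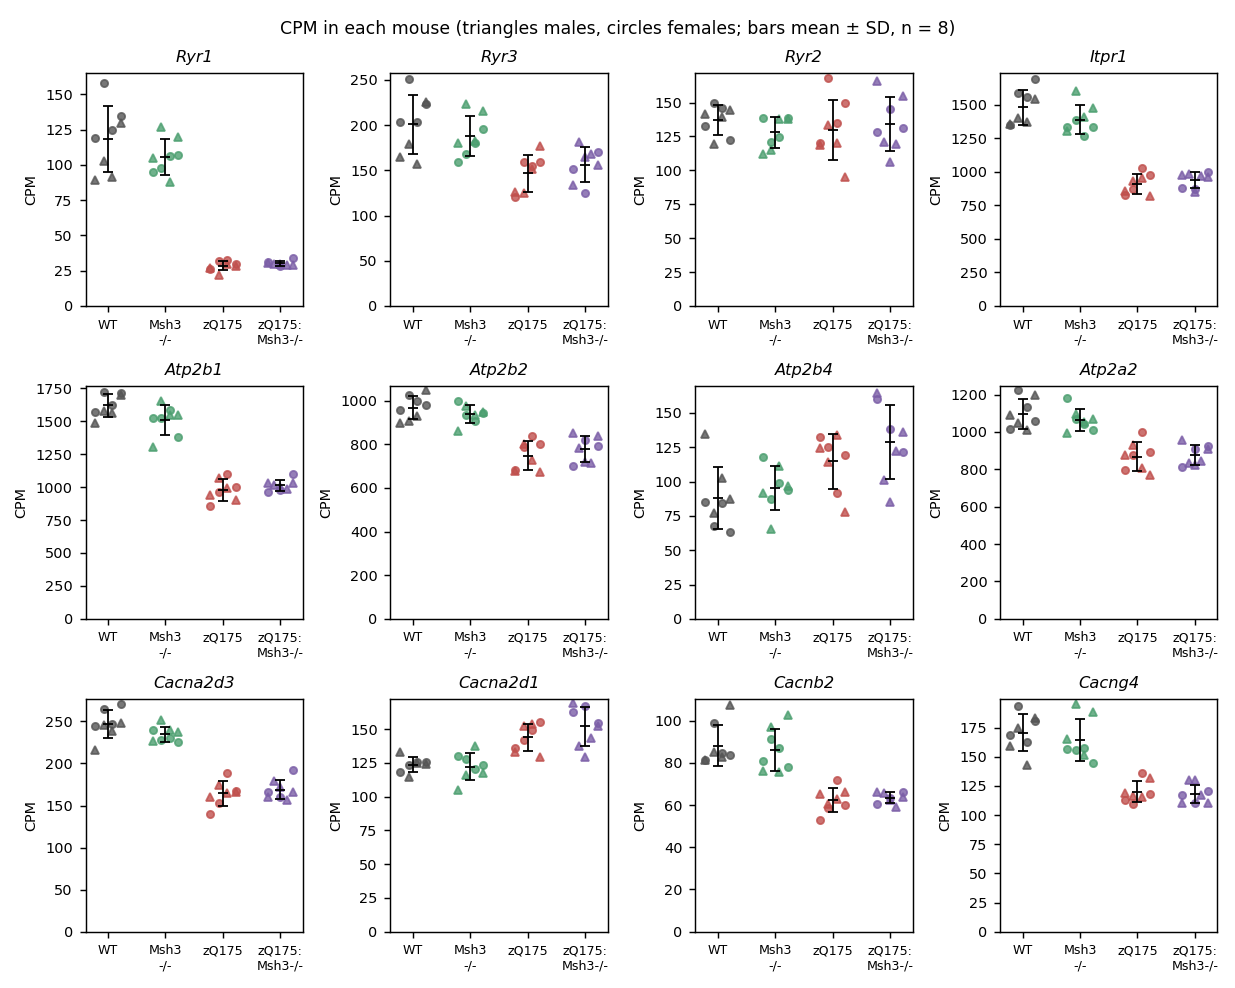
CPM of 12 genes in each mouse on a linear vertical axis from 0, by genotype along the horizontal axis (WT is wild-type), with triangles for males, circles for females and bars for mean ± SD (n = 8). Ryr1, Itpr1, Atp2b1, Atp2b2, Atp2a2, Cacna2d3, Cacnb2 and Cacng4 sit lower without overlap in zQ175 than in WT mice and in zQ175:Msh3-/- than in Msh3-/- mice, while Ryr2 overlaps throughout and Atp2b4 and Cacna2d1 sit higher with overlap.

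Of the 9 tested pore-forming subunits, 1 was lower past both thresholds in zQ175 against wild-type mice and 0 in zQ175:Msh3-/- against Msh3-/- mice. The shares of all genes that were lower were 6.89% and 5.96%. Cacna1e, the R-type channel, ran from 348 (median 395) to 478 CPM in wild-type and from 279 (median 301) to 349 in zQ175 mice, which overlapped narrowly. It ran from 343 (median 373) to 414 in Msh3-/- and from 284 (median 337) to 345 in zQ175:Msh3-/- mice. The log2 fold change was -0.37 ± 0.06 (adjusted p = 4.42e-06) in the first comparison and -0.20 ± 0.06 (adjusted p = 0.00940, under 1.2-fold) in the second. Cacna1c, a main L-type channel of neurons, was just under 1.2-fold at -0.25 ± 0.04 (adjusted p = 4.06e-05), with all zQ175 mice (93.5 to 111 CPM) below all wild-type mice (114 to 141), and at -0.11 ± 0.04 (adjusted p = 0.0685) in the second. Cacna1b (N-type) and Cacna1d (L-type) passed by adjusted p but were higher by less than 1.2-fold, at 0.15 ± 0.04 and 0.15 ± 0.05 in the first and 0.23 ± 0.04 and 0.19 ± 0.05 in the second, with adjusted p from 3.58e-05 to 0.0386. The T-type channel Cacna1h had the highest mean TPM of the α1 genes in wild-type mice, where it overlapped Cacna1e, which had more CPM. Cacna1h lay at 138 to 178 CPM (median 166) in wild-type and 139 to 181 (150) in zQ175 mice. It lay at 138 to 177 (158) in Msh3-/- and 139 to 178 (158) in zQ175:Msh3-/- mice. Its log2 fold changes were -0.07 (95% interval -0.18 to 0.05) and -0.01 (-0.13 to 0.11). Cacna1g, another T-type channel, was at 0.39 ± 0.22 and 0.32 ± 0.22 with adjusted p of 0.202 and 0.311 (95% interval -0.04 to 0.81 for the first).

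The β subunits, which carry channels to the membrane, were lower for 2 of 4 genes in each comparison, beside 6.89% and 5.96% of all genes. All 4 had negative log2 fold changes. Cacnb2 ran from 81.1 (median 84.1) to 108 CPM in wild-type and from 52.9 (median 61.8) to 72.1 in zQ175 mice. It ran from 75.8 (median 84.0) to 102 in Msh3-/- and from 59.2 (median 63.5) to 66.3 in zQ175:Msh3-/- mice. The groups were separate in both comparisons, with log2 fold changes of -0.50 ± 0.06 (adjusted p = 2.29e-07) and -0.44 ± 0.06 (adjusted p = 2.68e-06). Cacnb1 ran from 168 (median 200) to 229 CPM in wild-type, from 152 (161) to 196 in zQ175, from 175 (195) to 224 in Msh3-/- and from 143 (167) to 180 in zQ175:Msh3-/- mice, so that its groups overlapped. Its log2 fold changes were -0.27 ± 0.06 (adjusted p = 0.000636) and -0.29 ± 0.06 (adjusted p = 0.000301), and both rested near the 1.2-fold threshold. The first came under it without wild-type male 1, male 2 or female 2 or zQ175 female 1, female 2, male 2, male 3 or male 4 (-0.26 to -0.23), and the second without Msh3-/- male 2 (-0.26). Both came under it in all 3 settings on the TPM scale (-0.19 in the first comparison and -0.21 in the second). Cacnb3 (-0.14 ± 0.06 and -0.19 ± 0.06) and Cacnb4 (-0.10 ± 0.04 and -0.02 ± 0.04) were not past both thresholds.

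The α2δ subunits, which promote surface expression and include the binding site of gabapentin in Cacna2d1 and Cacna2d2, differed in direction. Cacna2d3 ran from 216 (median 247) to 270 CPM in wild-type and from 140 (median 166) to 189 in zQ175 mice. It ran from 226 (median 234) to 252 in Msh3-/- and from 157 (median 166) to 192 in zQ175:Msh3-/- mice. Neither pair overlapped, and the log2 fold changes were -0.59 ± 0.05 (adjusted p = 2.45e-12) and -0.47 ± 0.05 (adjusted p = 6.07e-10). Cacna2d1 ran from 115 (median 125) to 133 CPM in wild-type, from 129 (146) to 155 in zQ175, from 105 (122) to 138 in Msh3-/- and from 129 (153) to 169 in zQ175:Msh3-/- mice. It was higher past both thresholds in the second comparison, at 0.32 ± 0.05 (adjusted p = 1.29e-05), and under 1.2-fold in the first, at 0.22 ± 0.05 (adjusted p = 0.00136). Cacna2d2 was at -0.01 ± 0.06 in each.

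Of the 7 tested γ genes, 3 were lower in each comparison, beside 6.89% and 5.96% of all genes. Cacng4 ran from 143 (median 172) to 193 CPM in wild-type and from 110 (median 117) to 136 in zQ175 mice. It ran from 145 (median 157) to 195 in Msh3-/- and from 110 (median 117) to 130 in zQ175:Msh3-/- mice, without overlap in either comparison. Its log2 fold changes were -0.51 ± 0.06 (adjusted p = 3.53e-08) and -0.48 ± 0.06 (adjusted p = 1.58e-07). Cacng3 ran from 85.0 (median 107) to 134 CPM in wild-type, from 72.2 (80.3) to 89.0 in zQ175, from 88.5 (100.2) to 117 in Msh3-/- and from 70.2 (83.2) to 89.2 in zQ175:Msh3-/- mice, with a narrow overlap. Its log2 fold changes were -0.43 ± 0.07 (adjusted p = 9.72e-06) and -0.33 ± 0.07 (adjusted p = 0.000413). The genes for auxiliary subunits of AMPA receptors did not all go one way. Cacng8 was at 0.13 ± 0.04 (adjusted p = 0.0148) and 0.07 ± 0.04 (adjusted p = 0.223), under 1.2-fold in each comparison. Cacng5 was at 0.04 ± 0.08 and 0.03 ± 0.08. Cacng7 ran from 108 (median 122) to 132 CPM in wild-type, from 130 (135) to 147 in zQ175, from 112 (122.6) to 132 in Msh3-/- and from 124 (137) to 157 in zQ175:Msh3-/- mice. It had a positive log2 fold change under 1.2-fold in each comparison, 0.18 ± 0.04 (adjusted p = 0.00173) and 0.19 ± 0.04 (adjusted p = 0.00133), while Cacng2 was at -0.22 ± 0.05 in each.

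Cacng1 rested on few reads. Its level ran from 0.691 (median 0.920) to 1.66 CPM in wild-type, from 0.388 (0.600) to 0.869 in zQ175, from 0.449 (1.33) to 1.54 in Msh3-/- and from 0.320 (0.666) to 0.954 in zQ175:Msh3-/- mice, which is 6 to 29 reads a mouse. The log2 fold changes were -0.65 ± 0.25 (adjusted p = 0.0488) and -0.84 ± 0.25 (adjusted p = 0.0104). The first call was lost on leaving out any 1 of 11 of the 16 mice, all but wild-type males 1, 2 and 3 and zQ175 males 2 and 4 (adjusted p from 0.0513 to 0.135). It was also lost with DESeq2 (adjusted p = 0.0983), without the filter on low counts (0.0742 in edgeR), with sex in the model (0.0543 in edgeR) and in all 3 settings on the TPM scale (0.0773 to 0.126 in limma), and the second was lost on the TPM scale without a filter (0.0544 in limma).

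None of the 5 store-operated genes was called. Stim1 lay at 120 to 130 CPM (median 126) in wild-type, 118 to 139 (126) in zQ175, 122.5 to 130 (125) in Msh3-/- and 119 to 137 (129.6) in zQ175:Msh3-/- mice, with log2 fold changes of 0.03 (95% interval -0.03 to 0.09) and 0.04 (-0.02 to 0.10). Orai2, the main ORAI transcript, lay at 70.5 to 90.2 CPM (median 80.2) in wild-type, 72.4 to 84.7 (76.2) in zQ175, 74.2 to 87.3 (81.6) in Msh3-/- and 75.0 to 88.8 (81.5) in zQ175:Msh3-/- mice. The log2 fold change of Orai2 was -0.05 (-0.14 to 0.04) in the first comparison and 0.00 (-0.09 to 0.09) in the second. Stim2 was at -0.14 ± 0.04 (adjusted p = 0.00304) and -0.08 ± 0.04, well under 1.2-fold, and neither Orai1 nor Orai3 passed.

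Loss of MSH3 by itself gave no call among the calcium genes. In Msh3-/- against wild-type mice, 0 of the 42 passed both thresholds in edgeR or in DESeq2, beside 0.00602% of all genes, and 2 had an unadjusted p under 0.05, Atp2b1 and Atp2c1, beside 5.09% of all genes. Atp2b1 was at -0.10 ± 0.05 (unadjusted p = 0.0320, adjusted p = 0.926) and Atp2c1 at -0.06 ± 0.03 (unadjusted p = 0.0457, adjusted p = 0.926). Ryr1 was at -0.16 (95% interval -0.35 to 0.02).

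The comparison of zQ175:Msh3-/- against zQ175 mice asks what loss of MSH3 did in mice that carry the zQ175 allele. Whether the zQ175 difference itself changed is asked by the interaction test that follows. Here 0 of the 42 genes passed both thresholds in either tool, beside 0.00602% of all genes. An unadjusted p under 0.05 was found for 0 of them in either tool, beside 3.7% of all genes. Ryr1 was at 0.09 (95% interval -0.12 to 0.30), Itpr1 at 0.05 (-0.06 to 0.15), Atp2b1 at 0.05 (-0.04 to 0.14) and Cacna2d3 at 0.04 (-0.05 to 0.13). The values of zQ175 against wild-type mice for these genes were -2.06, -0.71, -0.73 and -0.59. The 13 genes called in that comparison lay between -0.02 and 0.10 here, and both comparisons share the zQ175 mice. Over all 42 genes the median was 0.03 and 8 were below 0, against a median of 0.00 and 48.3% below 0 for all genes. The widest intervals belonged to scarce genes, with -0.22 to 0.72 for Cacna1s and -0.45 to 0.59 for Cacng1.

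The difference between the zQ175 effects on the 2 Msh3 backgrounds was tested as an interaction. By adjusted p, 0 of the 42 genes passed in edgeR or in DESeq2, as for all genes (0%), and 3 had an unadjusted p under 0.05, beside 4.44% of all genes. These were Atp2b1 (0.16 ± 0.07), Cacna1c (0.14 ± 0.06) and Cacna1e (0.17 ± 0.08), each with an adjusted p of 0.999 in edgeR. In each of them the zQ175 difference was nearer to 0 on the Msh3-/- background. Of the 42 genes, 26.2% had an interaction below 0, against 48.5% of all genes. Among the 13 genes called in zQ175 against wild-type mice, 11 were above 0 (median 0.10). Those 13 were picked by a comparison that enters the interaction, so their lean is not an independent result. For Ryr1 the interaction was 0.25 (95% interval -0.02 to 0.53) and for Atp2b4 0.05 (-0.36 to 0.47). The calls that were made on 1 background alone, Cacna1e, Atp2b4 and Cacna2d1, are therefore not shown to differ between backgrounds.

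Genes that work around these channels and pumps were also called. Their lists were chosen with earlier results of these data known, so the counts describe the lists and do not test them. Over all genes, 6.89% were lower and 4.7% higher in zQ175 against wild-type mice, and 5.96% and 4.68% in zQ175:Msh3-/- against Msh3-/- mice. Of 18 calcium-dependent kinase and phosphatase genes, 8 were lower in each comparison and 0 higher, led by the calcineurin catalytic subunit Ppp3ca (-0.58 ± 0.04 in zQ175 against wild-type mice, adjusted p = 1.04e-14), Camk4 (-0.67 ± 0.05, 4.17e-14), Camk2n1, an inhibitor of CaMKII (-0.52 ± 0.05, 1.19e-10), and Ppp3r1, the regulatory subunit of calcineurin (-0.36 ± 0.04, 1.41e-08). The median log2 fold change of the 18 was -0.22 in the first comparison and -0.14 in the second. Of 20 calcium buffers and sensors, 6 were lower in the first comparison and 4 in the second, and 0 were higher. The first 4 were hippocalcin, Hpca (-0.69 ± 0.05, adjusted p = 4.02e-13), Necab1 (-0.49 ± 0.05), Caln1 (-0.41 ± 0.04) and Necab2 (-0.41 ± 0.06). Of 14 genes for exchangers and mitochondrial uptake, 4 were lower in the first comparison, the sodium-calcium exchangers Slc8a3 (-0.36 ± 0.04) and Slc8a2 (-0.40 ± 0.05) and the potassium-dependent exchangers Slc24a4 (-0.35 ± 0.06) and Slc24a2 (-0.28 ± 0.07), and 1 was lower and 1 higher in the second, a share near that over all genes. Of 20 tested partners of channels and release sites, 4 were lower and 1 higher in the first comparison and 5 lower and 2 higher in the second. Itpka, the kinase that removes inositol trisphosphate (-0.51 ± 0.03, adjusted p = 2.71e-14), and the scaffold Homer1 (-0.84 ± 0.09, 2.55e-08) were lower, Rem2, a small GTPase that inhibits channels, was lower (-0.41 ± 0.08), and Fkbp1b, which binds ryanodine receptors, was higher (0.43 ± 0.13, adjusted p = 0.00937). No gene of these 4 lists passed in either comparison of mice with and without Msh3.

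In whole striatum, fewer cells of a type and less RNA per cell cannot be told apart. Of the 10 listed spiny neuron markers, 9 (for example Penk, Pde10a, Adora2a and Drd1) were lower past both thresholds in each zQ175 comparison. The log2 fold changes of the 10 markers ran from -1.32 to 0.06 (median -0.81) in the first and from -1.36 to -0.01 (median -0.76) in the second. Their summed level ran from 7749.5 to 9471 CPM in wild-type against 4170 to 5444 in zQ175 mice, and from 7637 to 9844 in Msh3-/- against 4353 to 5379 in zQ175:Msh3-/- mice. Of the interneuron markers 2 of 7 were lower in the first and 3 of 7 in the second comparison, of the endothelial ones 2 of 4 and 0 of 4, and of astrocyte (6 genes), oligodendrocyte (6) and mural (5) markers 1 each and 0. Over all genes, 6.89% were lower in the first and 5.96% in the second comparison. The marker lists are short and were also chosen with earlier results of these data known. The summed astrocyte markers did not overlap in the first comparison, at 3465 to 3781 CPM in wild-type against 2930 to 3214 in zQ175 mice, and overlapped in the second, at 3229 to 3763 in Msh3-/- against 2949 to 3427 in zQ175:Msh3-/- mice. The summed endothelial markers likewise did not overlap in the first, at 138 to 160 CPM against 94.6 to 136, and overlapped in the second, at 113 to 172 against 108 to 136. Oligodendrocyte precursor (3 genes) and microglial (5) markers had 0 calls in either. The part of these cell types in the results was not tested.

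Cortical neuron markers differed between mice of the same genotype, and their medians lay higher with the zQ175 allele. The summed level of 4 cortical markers ran from 43.1 to 286 CPM (median 182) in wild-type against 33.0 to 367 (251) in zQ175 mice, and from 44.5 to 432 (202) in Msh3-/- against 121 to 623 (304) in zQ175:Msh3-/- mice, and 0 of the 4 passed the test in any comparison. With this level added to the model, an alternative chosen after seeing the data, 11 genes were lower and 0 higher in zQ175 against wild-type mice, and 12 lower and 0 higher in zQ175:Msh3-/- against Msh3-/- mice. The shares of all genes called under that model are not given here, so these counts cannot be set against them. Both genes that had been higher lost their call: Atp2b4 was then at 0.26 (adjusted p = 0.0555) and Cacna2d1 at 0.26 (adjusted p = 3.44e-06, under 1.2-fold). Ryr3 lost its call in the second comparison (-0.19, adjusted p = 0.111), Cacnb1 and Cacng1 theirs in the first, and Cacnb3 gained one in the second. Ryr1 (-2.01 and -1.75), Atp2b1 (-0.73 and -0.58), Itpr1 (-0.70 and -0.56) and Cacna2d3 (-0.57 and -0.45) kept theirs in both. Choroid plexus markers also ranged widely, from 18.8 to 1528 CPM in wild-type and from 29.1 to 2895 in zQ175:Msh3-/- mice, with 0 of 3 past the test, and of 3 thalamic markers 1 was lower in the second comparison.

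On the length-normalised values the balance of directions among the calcium genes was less one-sided. With limma on log2(TPM + 0.1), 11 genes were lower and 2 higher in zQ175 against wild-type mice, where counts gave 13 and 0, and 8 were lower and 4 higher in zQ175:Msh3-/- against Msh3-/- mice, where counts gave 12 and 2. The calls of Cacnb1 and Cacng1 were lost in the first comparison, and those of Atp2a2, Atp2b2, Cacnb1 and Ryr3 in the second. The genes gained as higher were Atp2b4 and Cacna2d1 in the first and Cacna1b and Cacna1d in the second. The median log2 fold change of all genes on that scale was 0.07 in the first and 0.09 in the second comparison, against 0.01 in each on counts. The shares of all genes called on that scale are not given here, so these counts cannot be set against them. Some members share exonic bases with another gene, and whether reads were counted by strand is not given in the sources used here: 3.96% of those of Ryr1 with an antisense gene at a median of 10 reads a mouse, and 4.83% of those of Ryr3 with Aven at a median of 166.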

How the data were processed

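Striatal RNA of 32 mice was sequenced by the authors as poly(A)-selected, paired-end libraries. The authors deposited raw counts per gene (genome build GRCm38.p6 per the submitters' processing notes) and a length-normalised table. The second is named as FPKM, but its columns all sum to the same round total, as TPM do, so its deposited values were treated as TPM. Aligner, counter, annotation and strand setting are not given in the sources used here. GENCODE M21 gave gene names for 54495 of the 54532 genes.

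Counts were tested with edgeR 4.0.16 (R 4.3.3): TMM scaling, filterByExpr by genotype, robust quasi-likelihood F test, all 32 mice in 1 model without covariates, Benjamini-Hochberg adjustment over 16610 genes. A call needed an adjusted p under 0.05 and a change of at least 1.2-fold. SE is the log2 fold change divided by the root of F, and 95% intervals rest on it. Single genes were also tested by exact permutation over 12870 arrangements of log2 CPM. Each library was 1 mouse. Alternatives used DESeq2 1.42.0, limma 3.58.1 on log2(TPM + 0.1) or log2(TPM + 1), other scaling and filters, sex, and leaving out each mouse. The tests were checked on simulated counts for zQ175 against wild-type mice. There edgeR called 64 of 100 genes changed 1.3-fold and 99 of 100 changed 2-fold, with 6 false calls among 16610 genes. A difference near 1.3-fold can therefore be missed.

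Genes named by mouse were those past both thresholds in either zQ175 comparison, at most 24, plus the most abundant of each family. Of each surrounding list up to 4 genes past both thresholds were named, by smallest adjusted p. Cacna1c, Cacna1b, Cacna1d, Cacna1g and other members named without their rule are given to account for the family. Members and lists were chosen with earlier results of these data known.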

Additional observations from a re-analysis of the deposited data

Results flagged for a closer look

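Among the 20 genes named by mouse, 80 sets of 8 mice were checked for a mouse standing apart, of which chance flags about 4, and 1 was found. In Ryr1, the third female zQ175:Msh3-/- mouse was at 34.2 CPM and the other 7 between 28.7 and 30.9, a gap of 0.581 of the group's range on the log2 scale. It remained below every mouse without the zQ175 allele, the lowest of which was at 87.8 CPM.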

How the results depend on the processing

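The counts of calcium genes past both thresholds in either direction, 13 and 14 in the zQ175 comparisons, stayed within 1.5 times under each alternative tool, scaling, filter, covariate and left-out mouse. By direction they moved more: the second comparison's 12 lower and 2 higher became 7 and 4 with limma on log2(TPM + 0.1) without a filter, 8 and 4 in the other limma settings, and 12 and 0 with cortical markers in the model. The totals moved with the fold threshold: at 1.1-fold zQ175 against wild-type gave 20, at 1.5-fold it gave 5, and zQ175:Msh3-/- against Msh3-/- gave 2. The shares of all genes called in these alternative settings are not given here. Same-numbered mice did not deviate together (8 of 45 pairs had r over 0.1, median -0.0137), so the replicate block is reported only here: it gave 14 and 12, gaining Atp2b4 in the first comparison and losing Atp2b4 and Ryr3 in the second. Log2 fold changes that reversed were all near 0, and on TPM the median of all genes was itself at 0.04 to 0.09. Against wild-type, Atp2c1 became 0.0585 (0.0581 with the pseudocount of 1) and Cacna1h 0.0168 (0.0165) on TPM. Against Msh3-/-, Cacna1h became 0.0189 (0.0187) on TPM and 0.0532 with cortical markers in the model, and ranged from -0.0388 to 0.015 without 1 mouse. Orai2 there became -0.0018 with DESeq2, -0.0006 with RLE scaling, -0.004 unfiltered, -0.0008 with sex and -0.0083 with cortical markers, ranging from -0.0168 to 0.0186 without 1 mouse. The cause of these moves was not tested. Calls that changed on leaving out 1 mouse are given with their genes. Cacng1 and the 4 untested genes are limited by depth.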
